A study of Mus musculus with 14 samples.

Results

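Endothelins are small peptides that constrict blood vessels and also act on glia and on migrating neural crest cells. The genes described here are the ligands Edn1 and Edn3, the receptors Ednra and Ednrb and the endothelin-converting enzymes Ece1 and Ece2. They were taken by gene symbol from a table of 36118 genes, which gave 6 genes, and all 6 passed the filter on low counts that left 16637 genes for testing. Hippocampal RNA of 14 mice aged 15 days was measured, with 1 library per mouse. WT-RA (n = 4) and KO-RA (n = 3) mice breathed room air, and WT-O2 (n = 4) and KO-O2 (n = 3) mice breathed 85% O2 from postnatal day 1 to day 14. The KO mice (C57BL/6N) were homozygous in all tissues for a CRISPR/Cas9 deletion in an exon of Gsdmd, which encodes the pore-forming protein gasdermin D, and the WT mice were littermates. The study asked how this deletion alters the response of the neonatal hippocampus to hyperoxia.

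In the endothelin pathway a large precursor protein is first cut by furin-type proteases, and a membrane metalloprotease such as ECE1 then releases the active peptide. The type A receptor (Ednra) sits mainly on vascular smooth muscle and pericytes, where it raises calcium through Gq proteins and causes constriction. The type B receptor (Ednrb) is found on endothelium, where it triggers nitric oxide release and clears the peptide, and in brain it is abundant on astrocytes. Edn1 is made chiefly by endothelial cells and is known to be induced by hypoxia, stretch and cytokines.

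The promoter of Edn1 is shown because Edn1 differed most between the exposures among these genes. RefSeq places it at chr13:42301226-42301525 on the plus strand (GRCm38.p6), with 250 bases before the transcription start and 50 bases after it. Capitals mark the letters AGATAA, as recognised by GATA factors, and ACGTG, the core of a hypoxia response element, both of which read 5′ to 3′ on the minus strand here.

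Edn1: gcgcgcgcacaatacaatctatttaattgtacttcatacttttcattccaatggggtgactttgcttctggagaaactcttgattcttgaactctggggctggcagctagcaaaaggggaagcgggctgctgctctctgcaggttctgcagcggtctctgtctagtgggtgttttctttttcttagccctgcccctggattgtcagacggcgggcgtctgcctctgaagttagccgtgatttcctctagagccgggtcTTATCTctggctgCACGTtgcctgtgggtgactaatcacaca

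The GATA letters start at base 259 of the 300 and the ACGTG letters at base 272, counted from the 5′ end. Both thus lie in the 50 bases after the annotated transcription start. Both strands of 32851 promoters of this length were searched, and AGATAA occurred in 11.2% of them and ACGTG in 19.6%. The AP-1 letters TGANTCA, found in 7.8% of promoters, and the E-box CACGTG, which holds ACGTG within it and was found in 7.2%, did not occur in this window of Edn1. The search took exact letters only, and TGACTAA near the 3′ end of the window has A where TGANTCA has C. Among the promoters of the other genes, ACGTG occurred in that of Ece2 and in 1 of 4 of Ece1, and those of Edn3, Ednra and Ednrb held none of the 4 motifs. These matches describe letters only.

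The libraries summed to between 27272270 and 28257496 estimated counts. Gsdmd was between 1.47 and 2.23 CPM (counts relative to library size) in WT mice and between 0.817 and 1.5 CPM in KO mice. Within each exposure all KO mice were below all WT mice. In room air KO mouse GSD490 (1.469 CPM, 42 counts) nearly equalled WT mouse GSD401 (1.471 CPM, 41 counts). The genotypes overlapped slightly across exposures. Over all genes, KO and WT groups did not overlap, in either direction, in 19.6% in room air and 19% in hyperoxia. The log2 fold change of Gsdmd in KO was -0.46 in room air (SE 0.20, not called) and -0.58 in hyperoxia (SE 0.19, called). Transcripts of the gene were still counted in every KO library. The counts are sums over transcripts and do not show which carry the deletion. The record of WT-O2 mouse GSD408 gives hyperoxia in its title and room air in its treatment field, and the title was used. The WT mice are numbered GSD398 to GSD408 and the KO mice GSD489 to GSD496, so genotype and mouse number range cannot be told apart. Lists of region markers also differed with genotype. All 10 striatal markers were called lower in KO mice in both exposures, and all 10 hippocampal neuron markers were called higher with KO in room air, as were 4 of 10 in hyperoxia. The summed striatal level was 472 to 1000 CPM in the WT libraries and 204 to 314 CPM in the KO libraries.

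Calls required a difference of at least 25% between group levels, p below 0.05 and q below 0.1 by edgeR's quasi-likelihood test, where q is the p adjusted by the Benjamini-Hochberg method over the 16637 genes. Of the 6 genes, 2 were called between WT-O2 and WT-RA (Edn1 and Ednrb, both higher), where 0.643% of all genes were called. None of the 6 was called between KO-O2 and KO-RA by this test, where 0.012% of all genes were called, and DESeq2 called 1 (Edn1). There 1 of the 6 (Edn1) had an unadjusted p under 0.05, as had 4.86% of all genes. Between KO-RA and WT-RA 1 was called (Ece1, lower), against 10.4% of all genes. Between KO-O2 and WT-O2 none was called by edgeR or by DESeq2, against 6.86% of all genes called by edgeR. There 1 of the 6 (Ece1) had an unadjusted p under 0.05, as had 18.7% of all genes. With both genotypes averaged, 1 was called for hyperoxia (Edn1), against 0.337%. The interaction of genotype and hyperoxia was called for none of the 6 and for 0% of all genes by edgeR or by DESeq2. None of the 6 had an unadjusted p under 0.05 for it, as 673 of the 16637 genes did. Such a p was found for 12.2% of all genes between WT-O2 and WT-RA and for 23.5% between KO-RA and WT-RA.

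**Figure D1:**
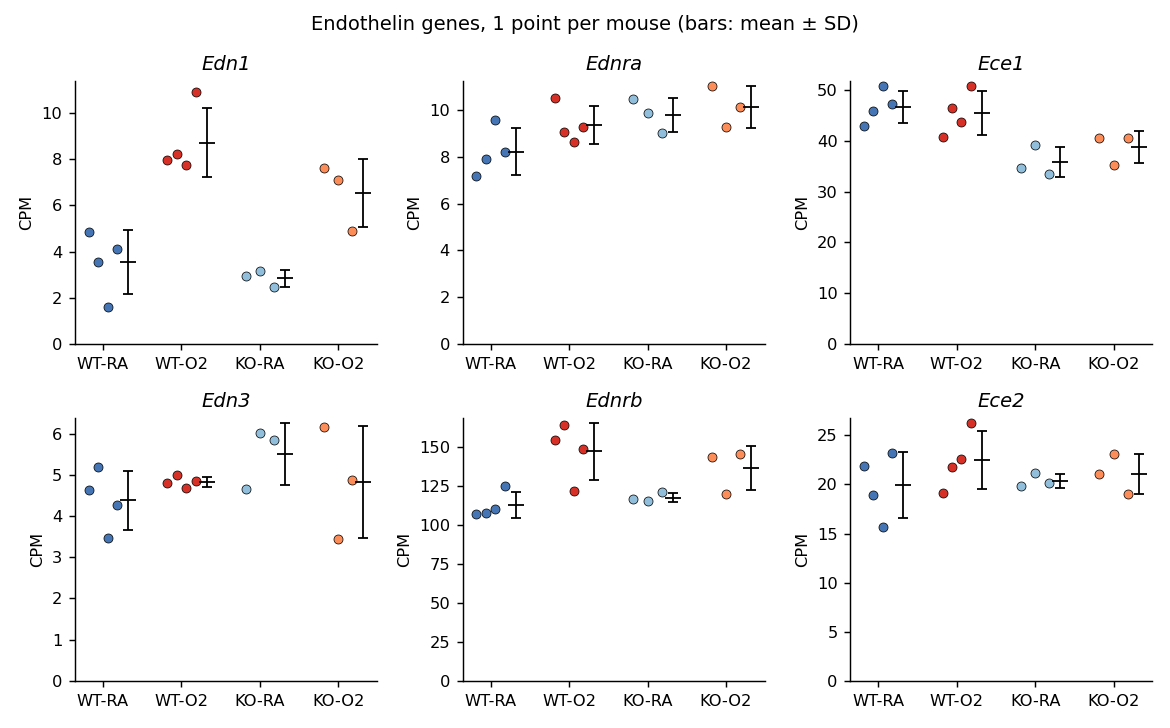
Expression of the 6 genes in CPM (y axis, from 0), 1 point per mouse in the 4 groups (x axis), with the mean and SD as bars. All 4 WT-O2 mice (7.72 to 10.9 CPM of Edn1) sit above all 4 WT-RA mice (1.63 to 4.84 CPM), the Ednrb points of WT-O2 and WT-RA overlap, and all KO points of Ece1 sit below the WT points of the same exposure.

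Edn1 (ENSMUSG00000021367), which encodes the vasoconstrictor endothelin-1, was the ligand that differed with oxygen. Among the WT-RA mice it was 4.84 CPM in GSD398, 3.56 in GSD399, 1.63 in GSD400 and 4.13 in GSD401. Among the WT-O2 mice it was 7.95 CPM in GSD404, 8.21 in GSD405, 7.72 in GSD406 and 10.9 in GSD408. Every WT-O2 mouse was thus above every WT-RA mouse, with the lowest value in GSD400 and the highest in GSD408. The mean rose from 3.54 ± 1.38 to 8.70 ± 1.49 CPM (SD, n = 4 each), a 2.46-fold change (log2 fold change 1.30, SE 0.25, 95% interval 0.77 to 1.83, edgeR q = 0.0574). Of all genes, 5.99% had WT-O2 and WT-RA groups that did not overlap.

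In the KO-RA mice Edn1 was 2.93 CPM in GSD489, 3.15 in GSD490 and 2.46 in GSD496. In the KO-O2 mice it was 7.63 CPM in GSD491, 7.08 in GSD494 and 4.88 in GSD495. The KO groups did not overlap either, as was so for 11.8% of all genes. The means were 2.85 ± 0.36 and 6.53 ± 1.46 CPM (SD, n = 3 each), and the log2 fold change was 1.20 (SE 0.29, 95% interval 0.57 to 1.82), with an unadjusted p of 0.000991 that did not pass the adjustment (edgeR q = 0.66). DESeq2 called it with a log2 fold change of 1.20 (q = 0.0715). The difference between the KO and WT responses was -0.10 on the log2 scale (SE 0.38, 95% interval -0.92 to 0.71, edgeR q = 1.00), an interval that leaves room for a smaller or a larger response in KO mice. Averaged over the genotypes, Edn1 rose 2.37-fold with hyperoxia (log2 fold change 1.248, SE 0.19, edgeR q = 0.0151).

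Between genotypes Edn1 was not called. In order of their means the groups were WT-O2, KO-O2, WT-RA and KO-RA. All 3 KO-O2 mice were below all 4 WT-O2 mice, where 19% of all genes had groups without overlap in either direction. The log2 fold change of Edn1 was -0.41 (SE 0.26, 95% interval -0.97 to 0.14, edgeR q = 0.436). The KO-RA and WT-RA mice overlapped (log2 fold change -0.31, SE 0.28, edgeR q = 0.575). That value depended on single WT-RA mice. Without GSD400 the log2 fold change was -0.55 and Edn1 was called lower in KO-RA (edgeR q = 0.0965), and without GSD398 it was -0.11 and not called.

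The call for Edn1 in WT mice depended on single animals. With GSD408 set to room air, as its treatment field has it, the log2 fold change was 0.67 (edgeR q = 0.566), and leaving out GSD399, GSD404 or GSD405 moved q above 0.1 with log2 fold changes of 1.30, 1.34 and 1.33. The exact two-sided permutation test for WT-O2 and WT-RA gave 0.0286, the smallest p that 4 against 4 mice allow, and 0.274 after adjustment over the 24 tests of the 6 genes in 4 comparisons. For KO mice 0.10 is the smallest it can give.

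The summed levels of vessel wall markers overlapped between the exposures. The 12 endothelial markers summed to 275 to 308 CPM in WT-RA and 263 to 306 CPM in WT-O2 mice, and to 257 to 285 CPM in KO-RA and 219 to 310 CPM in KO-O2 mice, with 0 of 12 called by edgeR or DESeq2 in any of the 4 comparisons, 1 to 3 at an unadjusted p under 0.05 in each, and none at 0. With the endothelial score as a covariate the log2 fold change of Edn1 in WT mice was 1.30 (edgeR q = 0.0703). Of 7 arterial markers 6 were higher in WT-O2 by value (median log2 fold change 0.19), with none called by edgeR, 2 at an unadjusted p under 0.05 and 1 called by DESeq2. Their summed levels were 86.9 to 113 CPM in WT-RA and 107 to 113 CPM in WT-O2 mice. In bulk tissue, more cells of a type and more RNA per cell cannot be told apart.

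Markers of neighbouring regions varied between the WT mice. The summed level of 10 thalamic markers was lowest among WT-RA mice in GSD400 (188 CPM) and highest in GSD398 (1030 CPM), which also had the lowest and the highest Edn1 of that group. Among WT-O2 mice it was highest in GSD408 (779 CPM), as was Edn1, and 357 to 570 CPM in the other WT-O2 mice, of which GSD406 had the highest thalamic sum and the lowest Edn1. Sums of endothelial, striatal, oligodendrocyte lineage, and choroid plexus and ependyma markers were also lowest in GSD400 and highest in GSD398 among WT-RA mice. They were likewise highest in GSD408 among WT-O2 mice. Mural and astrocyte sums shared the WT-RA extremes but were highest in GSD404 among WT-O2 mice. Arterial, hippocampal neuron and hypothalamic sums did not share both WT-RA extremes. The sum of 9 deep cortical and subplate markers was highest among WT-RA mice in GSD400 (445 CPM) and lowest in GSD398 (254 CPM). Between WT-O2 and WT-RA mice, 0 of 10 thalamic and 0 of 10 striatal markers were called by edgeR or DESeq2, 0 of them at an unadjusted p under 0.05, while 1 of 10 hippocampal neuron markers was called higher (5 at an unadjusted p under 0.05, 9 higher by value, median log2 fold change 0.46) and 2 of 9 deep cortical and subplate markers lower (6 at an unadjusted p under 0.05, median -0.49). Of the 9 oligodendrocyte lineage markers 8 were lower in WT-O2 by value (median -0.49), and 8 of 8 meningeal fibroblast markers were higher (median 0.33). By edgeR 0 of either list were called, with 2 and 1 at an unadjusted p under 0.05, and DESeq2 called 0 and 1. Beyond fits with the striatal and thalamic scores or the endothelial score as covariates, the part of these markers in the difference of Edn1 or Ednrb was not tested. With the striatal and thalamic scores as covariates, the log2 fold change of Edn1 in WT mice was 1.254 (edgeR q = 0.0112).

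**Figure D2:**
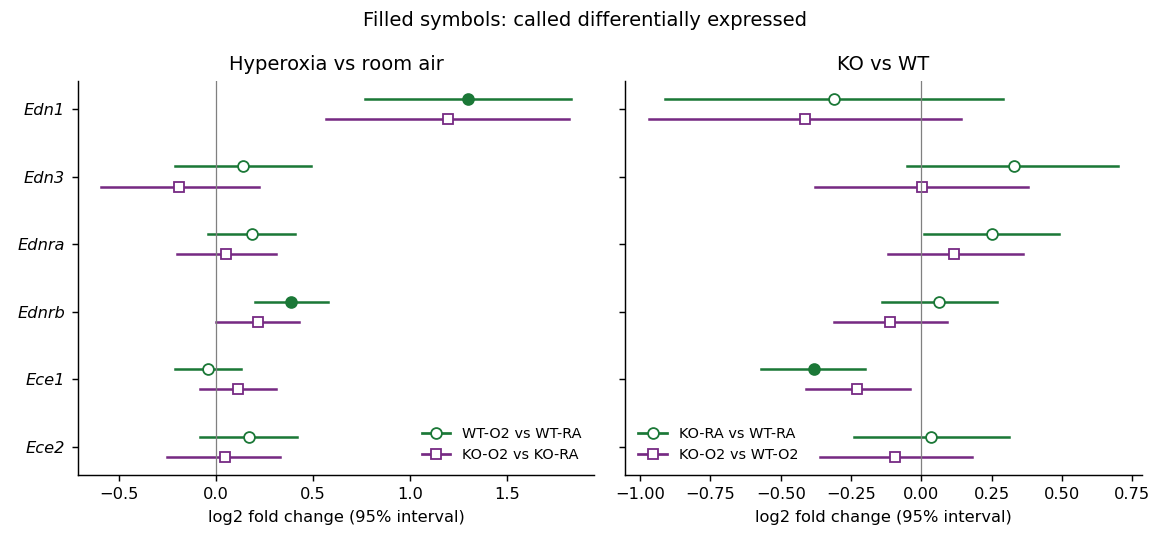
Log2 fold changes of the 6 genes (x axis) with their 95% intervals, for hyperoxia against room air in each genotype (left) and for KO against WT in each exposure (right), with filled symbols for genes called. Edn1 has the 2 highest values for hyperoxia, 1.30 in WT and 1.20 in KO mice, with intervals that overlap for most of their width, and Ece1 is the one gene called between genotypes.

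Edn3 (ENSMUSG00000027524) encodes endothelin-3, a ligand that acts chiefly through the type B receptor and is best known from the enteric nervous system and pigment cells. It was not called in any of the 6 comparisons by edgeR or DESeq2. Its level was 3.46 to 5.18 CPM in WT-RA (median 4.44), 4.67 to 4.98 in WT-O2, 4.64 to 6.02 in KO-RA and 3.45 to 6.16 in KO-O2 mice, and the groups overlapped in every comparison. Its mean was highest in KO-RA (5.50 CPM) and lowest in WT-RA mice (4.38 CPM), and no neighbours in the order differed beyond their spread. The log2 fold change with hyperoxia was 0.14 in WT (SE 0.17, 95% interval -0.21 to 0.49) and -0.19 in KO mice (SE 0.19, 95% interval -0.59 to 0.22). Edn2, the ligand that is not among the 6 genes, had between 0 and 2 counts per library and was not tested.

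Ednrb (ENSMUSG00000022122) was the receptor that differed with hyperoxia. With the mice in the order given for Edn1, it was 107, 108, 110 and 125 CPM in WT-RA and 155, 165, 122 and 149 CPM in WT-O2 mice. The groups overlapped, because WT-O2 mouse GSD406 lay below WT-RA mouse GSD401. The mean rose from 113 ± 8.39 to 147 ± 18.4 CPM (SD, n = 4 each), which is 1.31-fold (log2 fold change 0.39, SE 0.088, 95% interval 0.20 to 0.58, edgeR q = 0.0872). In KO-RA mice it was 117, 115 and 121 CPM and in KO-O2 mice 144, 120 and 146 CPM, so that GSD494 among the KO-O2 mice lay within the KO-RA range. The log2 fold change in KO mice was 0.22 (SE 0.10, 95% interval -0.00 to 0.43, edgeR q = 0.997) and the difference between the genotypes' responses -0.17 (SE 0.14, 95% interval -0.46 to 0.12, edgeR q = 1.00). Averaged over the genotypes the change was 1.23-fold (edgeR q = 0.0953), under the fold threshold.

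In order of means, Ednrb was highest in WT-O2, then KO-O2, KO-RA and WT-RA mice, and KO and WT did not differ beyond their spread in either exposure (edgeR q = 0.768 in room air and 0.604 in hyperoxia). The call in WT mice was lost in 10 of the 14 fits that left out a mouse, while the log2 fold change stayed between 0.33 and 0.47 over all 14, and with GSD408 as room air (0.29, edgeR q = 0.38). Astrocyte markers, from the glia that carry most of this receptor, summed to 4040 to 4630 CPM in WT-RA and 4020 to 4550 CPM in WT-O2 mice, with 0 of 10 called by edgeR or DESeq2 for hyperoxia in either genotype, 2 at an unadjusted p under 0.05 in WT and 0 in KO mice, and none at 0. With the striatal and thalamic scores as covariates the value in WT mice was 0.42 (edgeR q = 0.0462).

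Ednra (ENSMUSG00000031616), the constrictor receptor of the vessel wall, was not called in any comparison with all mice. It was 7.16, 7.89, 9.58 and 8.21 CPM in WT-RA mice and 10.5, 9.03, 8.60 and 9.26 CPM in WT-O2 mice. In KO-RA mice it was 10.5, 9.86 and 9.0 CPM and in KO-O2 mice 11.03, 9.24 and 10.1 CPM. The groups overlapped in each pairwise comparison, and the mean was lowest in WT-RA (8.21 ± 1.01 CPM, SD, n = 4) and highest in KO-O2 mice (10.1 ± 0.89 CPM, SD, n = 3). The log2 fold change with hyperoxia was 0.19 in WT (95% interval -0.04 to 0.41) and 0.05 in KO mice (95% interval -0.20 to 0.31). Between KO-RA and WT-RA it was 0.25 (SE 0.11, edgeR q = 0.188). This value too depended on single WT-RA mice. Ednra was called higher in KO-RA without GSD400 (log2 fold change 0.34, edgeR q = 0.0585), and not without GSD398 (log2 fold change 0.20). Of the 10 mural cell markers 0 were called by edgeR in any of the 4 comparisons, with 4 at an unadjusted p under 0.05 between KO-RA and WT-RA and 1 between WT-O2 and WT-RA. DESeq2 called 1 in each of these comparisons. For hyperoxia averaged over the genotypes edgeR called 1 mural marker lower (Abcc9, log2 fold change -0.47), a call that held under 11 of 24 alternatives. The mural markers had summed levels of 302 to 349 CPM in WT-RA and 354 to 385 CPM in KO-RA mice.

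Ece1 (ENSMUSG00000057530), the main converting enzyme, differed with genotype and not detectably with oxygen. It was 43.0, 45.8, 50.7 and 47.2 CPM in WT-RA mice and 34.7, 39.3 and 33.5 CPM in KO-RA mice. Each KO-RA mouse was below each WT-RA mouse, where 19.6% of all genes had groups without overlap in either direction. The mean fell from 46.6 ± 3.21 (SD, n = 4) to 35.8 ± 3.04 CPM (SD, n = 3), with a log2 fold change of -0.38 (SE 0.087, 95% interval -0.57 to -0.20, edgeR q = 0.012). In hyperoxia it was 40.8, 46.4, 43.8 and 50.8 CPM in WT-O2 and 40.5, 35.3 and 40.6 CPM in KO-O2 mice. These groups did not overlap either, as was so in either direction for 19% of all genes. KO-O2 mouse GSD495 (40.61 CPM) was just below WT-O2 mouse GSD404 (40.78 CPM). Ece1 was not called in hyperoxia (log2 fold change -0.23, SE 0.086, 95% interval -0.41 to -0.04, edgeR q = 0.153). The group means thus ran from WT-RA through WT-O2 and KO-O2 down to KO-RA. The log2 fold change with hyperoxia was -0.04 in WT (95% interval -0.21 to 0.13) and 0.12 in KO mice (95% interval -0.08 to 0.31).

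The lower Ece1 of KO-RA mice went with lower levels of other regions' and oligodendrocyte markers. Beside the striatal list, 5 of 10 thalamic and 8 of 9 oligodendrocyte lineage markers were called lower in KO-RA than in WT-RA mice, and the oligodendrocyte sum was 3350 to 5160 CPM in KO-RA against 7330 to 17800 CPM in WT-RA mice. With the striatal and thalamic scores as covariates, which differ between the genotypes themselves, the log2 fold change of Ece1 was -0.17 (SE 0.22, edgeR q = 0.889). With these scores 13 of all genes were called between KO-RA and WT-RA, against 1738 without them. Without KO-RA mouse GSD496 the log2 fold change of Ece1 was -0.32, a difference under the 25% required. Further than this, the part of tissue composition in the difference was not tested.

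Ece2 (ENSMUSG00000022842), a related enzyme that works at acid pH and is enriched in neurons and endocrine cells, was not called in any comparison by edgeR or DESeq2. It was 15.7 to 23.2 CPM in WT-RA (median 20.4), 19.1 to 26.3 in WT-O2 (median 22.2), 19.9 to 21.2 in KO-RA and 19.0 to 23.1 CPM in KO-O2 mice. The groups overlapped in each pairwise comparison, and their means, highest in WT-O2 (22.4 CPM) and lowest in WT-RA (19.9 CPM), did not differ beyond this spread. As with Edn1, GSD400 held the lowest and GSD408 the highest value of the 8 WT mice. The log2 fold change with hyperoxia was 0.17 in WT (95% interval -0.08 to 0.42) and 0.05 in KO mice (95% interval -0.25 to 0.33). Some uncertainty remains in the assignment of reads, because Gm49333 lies over the same locus and strand. It was given 9 counts in GSD405, 21 in GSD494 and 14 in GSD495 and none in the other libraries. In these mice Ece2 itself had 607, 629 and 506 counts. Annotated genes on the opposite strand overlap Edn1, Ednra and Ece1, and whether the counting used strand is not given in the sources used here.

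**Figure D3:**
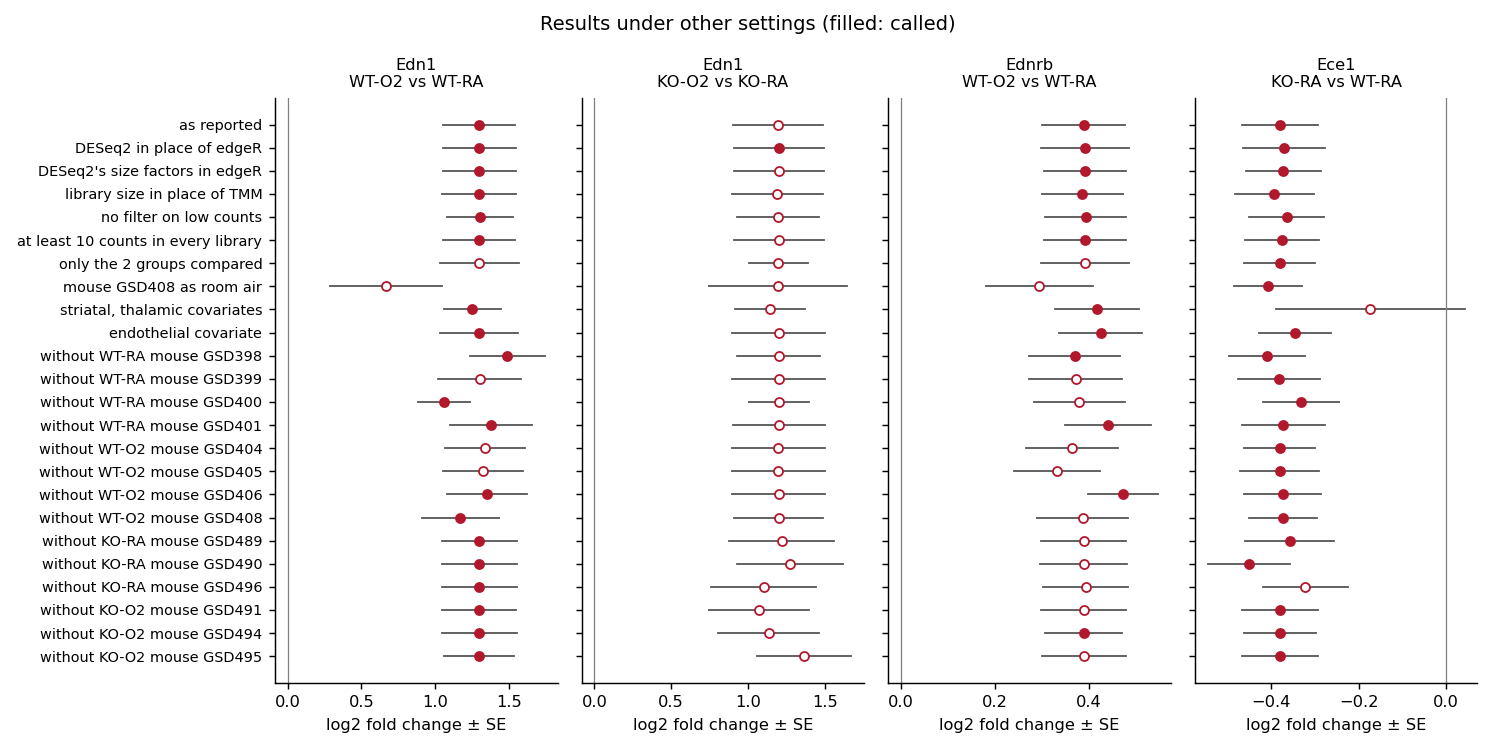
Log2 fold change ± SE (x axes, which differ in range) of 4 results under each processing setting and with each mouse left out (rows), with filled points where the gene was called. Edn1 in WT mice stays between 1.06 and 1.49 with any mouse left out and drops to 0.67 with GSD408 as room air, Ednrb is filled in few of the rows that leave out a mouse, and Ece1 nears 0 with striatal and thalamic scores as covariates.

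Genes that act around the endothelins were examined as a list of 28, of which 25 could be tested. None of the 25 was called for hyperoxia by edgeR or DESeq2. Of the 25, 4 had an unadjusted p under 0.05 in WT and 0 in KO mice, as had 12.2% and 4.86% of all genes. The median log2 fold change of the 25 was 0.04 in WT and 0.05 in KO mice, beside -0.01 and -0.00 over all genes. Precursor cleavage by Furin and Pcsk7, the Gq family genes Gnaq and Gna11 and the arrestins Arrb1 and Arrb2 were among those not called. Between genotypes 5 were called in room air (1 higher and 4 lower in KO), where 10.4% of all genes were called, and 4 in hyperoxia (1 higher and 3 lower), where 6.86% were.

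Ecel1, an endothelin-converting enzyme-like protease of neurons, was 3.59 to 4.55 CPM in KO-RA against 3.39 to 22.2 CPM in WT-RA mice, where GSD400 alone was as low as the KO mice. Its log2 fold change was -1.79 in room air (SE 0.44, edgeR q = 0.019) and -2.31 in hyperoxia (SE 0.45, edgeR q = 0.00699). Mme, or neprilysin, which degrades endothelins and other peptides, fell from 12.6 ± 0.77 CPM (SD, n = 4) in WT-RA to 7.49 ± 0.84 CPM (SD, n = 3) in KO-RA mice (log2 fold change -0.75, SE 0.12, edgeR q = 0.00144). Plcb4, a phospholipase C of the Gq cascade, was 47.1 to 112 CPM in WT-RA and 19.9 to 30.8 CPM in KO-RA mice (log2 fold change -1.50, SE 0.29, edgeR q = 0.00493). Itpr2, an inositol trisphosphate receptor, was called lower in room air alone, with log2 fold changes of -0.38 in room air and -0.18 in hyperoxia whose difference was not called (0.20, SE 0.14, edgeR q = 1.00), and the call was lost without GSD398. Prkca, protein kinase C alpha, was the one called higher, with 280 to 344 CPM in KO-RA against 192 to 236 CPM in WT-RA mice and log2 fold changes of 0.48 in room air and 0.43 in hyperoxia. All 9 of these calls were lost with the striatal and thalamic scores as covariates, with log2 fold changes in room air of -0.23 for Ecel1, -0.08 for Mme, -0.31 for Plcb4, 0.13 for Itpr2 and 0.27 for Prkca, and in hyperoxia of -0.71 for Ecel1, 0.10 for Mme, -0.02 for Plcb4 and 0.21 for Prkca. The striatal and thalamic scores differ between the genotypes themselves, and the part of tissue composition in these differences was not tested further. With the scores 13 of all genes were called between genotypes in room air and 2 in hyperoxia, against 1738 and 1142 without them.

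Of 20 genes for other vasoactive peptides and vascular tone, all tested, 1 was called for hyperoxia in WT and 0 in KO mice by edgeR, with 6 and 4 at an unadjusted p under 0.05. Over all genes 0.643% and 0.012% were called, and 12.2% and 4.86% had an unadjusted p under 0.05. DESeq2 called 1 of the 20 in each genotype. The gene was Adm in each case, which encodes the vasodilator adrenomedullin. It was 1.35, 1.37, 1.52 and 1.29 CPM in WT-RA mice GSD398 to GSD401 and 3.30 CPM in GSD404, 5.16 in GSD405, 2.44 in GSD406 and 8.42 in GSD408 of the WT-O2 mice. Like Edn1 it did not overlap between exposures, as was so for 5.99% of all genes in WT mice, and was highest in GSD408. It rose 3.49-fold (log2 fold change 1.80, SE 0.35, edgeR q = 0.0612), and with GSD408 as room air the log2 fold change was 0.38 and not called. The call in WT mice was also lost without GSD399 or GSD405. In KO mice it was 0.557, 1.05 and 1.32 CPM in room air and 6.44, 3.27 and 4.95 CPM in hyperoxia (log2 fold change 2.32, SE 0.42, edgeR q = 0.186). Averaged over the genotypes Adm rose 4.17-fold (log2 fold change 2.06, edgeR q = 0.00449), a call that was also lost with GSD408 as room air (log2 fold change 1.35, edgeR q = 0.404). The adrenomedullin receptor gene Calcrl was not called in any pairwise comparison. The endothelial nitric oxide synthase gene Nos3, which acts downstream of the type B receptor, was not called either.

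The other called genes of this list differed between genotypes. In each exposure 1 was called higher and 2 lower in KO, where 10.4% of all genes were called in room air and 6.86% in hyperoxia. Ramp3, a partner of the adrenomedullin receptor, had log2 fold changes in KO of -2.82 in room air and -2.09 in hyperoxia, and Gucy1a1, a subunit of the nitric oxide receptor, of -0.97 and -1.15, all called. Npr3, the clearance receptor of natriuretic peptides, was called higher in KO-RA mice (log2 fold change 0.63, SE 0.16, edgeR q = 0.0207), and Ramp2 higher in KO-O2 mice (0.34, SE 0.10, edgeR q = 0.0697). None of these 6 calls held with the striatal and thalamic scores as covariates, where the log2 fold changes in room air were -1.65 for Ramp3, -0.53 for Gucy1a1 and 0.22 for Npr3, and in hyperoxia -0.82 for Ramp3, -0.69 for Gucy1a1 and 0.13 for Ramp2. The scores differ between the genotypes themselves. With them 13 of all genes were called between genotypes in room air and 2 in hyperoxia, against 1738 and 1142 without them. The SE of the value for Ramp3 was then 0.63 in room air and 0.64 in hyperoxia. The part of tissue composition in these differences was not tested further. The call of Ramp2 held under 14 of 25 alternatives in all.

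Of 10 genes for transcription factors known to act on Edn1, Fos was the one that edgeR called in a pairwise comparison, and DESeq2 also called Foxo1 between WT-O2 and WT-RA (log2 fold change 0.35, q = 0.0493), a call that edgeR made there with the striatal and thalamic scores as covariates. Fos was at 17.2, 19.5, 17.2 and 14.8 CPM in WT-RA and 6.34, 8.60, 7.79 and 9.57 CPM in WT-O2 mice. In KO-RA mice it was 12.8, 11.4 and 10.2 CPM and in KO-O2 mice 4.90, 4.59 and 5.25 CPM. No exposure groups overlapped, as was so for 5.99% of all genes in WT and 11.8% in KO mice. Fos fell with hyperoxia in both genotypes (log2 fold change -1.09, SE 0.12, edgeR q = 0.00523 in WT, and -1.22, SE 0.15, edgeR q = 0.0121 in KO mice), in the opposite direction to Edn1. It was also called lower in KO than in WT mice in both exposures. With GSD408 as room air none of these 4 calls held, although the log2 fold changes with hyperoxia were -1.05 in WT and -1.22 in KO mice and those between genotypes -0.45 and -0.63. The value averaged over the genotypes remained called there (-1.13, edgeR q = 0.014). With the striatal and thalamic scores as covariates, which differ between the genotypes themselves, the calls of Fos for hyperoxia held. Those between genotypes did not (-0.26 in room air and -0.38 in hyperoxia). The transcripts of Hif1a, Epas1 and Arnt, whose proteins form the hypoxia-inducible factors and are controlled mainly after translation, were not called in any pairwise comparison by edgeR or DESeq2, and neither were Gata2, Jun, Klf2, Klf4 and Smad3.

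**Figure D4:**
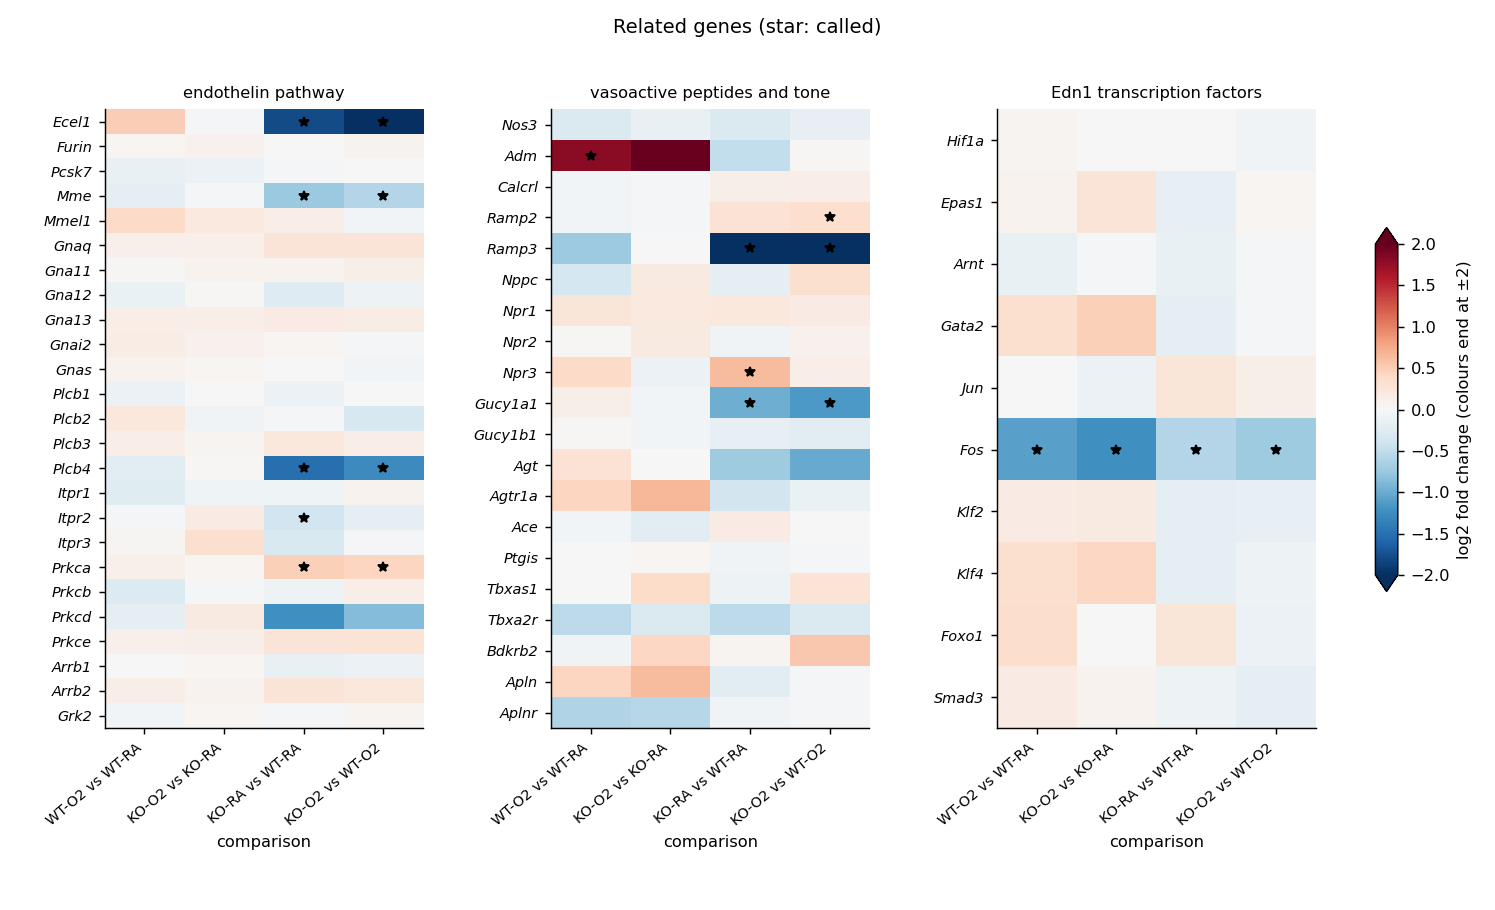
Log2 fold changes (colour, ending at ±2) of 25 endothelin pathway genes, 20 genes of vasoactive peptides and tone and 10 genes of transcription factors acting on Edn1 (rows) in the 4 pairwise comparisons (columns), with a star where a gene was called. In the columns for hyperoxia the stars are at Adm, in WT mice, and at Fos, in both genotypes, and the columns for genotype hold the others.

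The genes whose log2 CPM was most like that of Edn1 over the 14 libraries were Rreb1 (Pearson r = 0.935), Ier3 (0.930), Fchsd2 (0.893), Aldh5a1 (0.891) and Rcan3 (0.882), out of 13849 named genes of at least 1 CPM. After the group means were taken out, the most like were Rreb1 again (r = 0.941), Mcf2 (0.924), Mboat1 (0.912), Map3k1 (0.898) and Aga (0.897). Rreb1 was thus the one gene on both lists. For Ednrb the leading genes were Vps25, Zfp318 and Maff (r between 0.843 and 0.860), and for Ece1 they were Stim1, Slc45a1 and Mthfd1l (r between 0.927 and 0.951). For Edn3 they were Chst7, Vwa5a and Fcgrt (0.853 to 0.900), for Ednra Eif3l, Mcm6 and Tsr1 (0.892 to 0.916), and for Ece2 Ccna1, Sdsl and Aga (0.841 to 0.862). By deviations from the group means the leading genes were Zfp654, Trappc3 and Tax1bp3 for Ednrb, Letm1, Ctdp1 and Mbd3 for Ece1, Fcgrt, Alas2 and Shisa8 for Edn3, Tm7sf2, Ptp4a3 and Fbxl17 for Ednra, and Rtl5, Aga and Rffl for Ece2. These correlations are descriptions of 14 libraries that share group differences and tissue makeup, and the leading genes were picked from many.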

How the data were processed

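Hippocampal RNA-seq libraries of 14 mice were grouped by genotype and exposure as their public records give them. The authors deposited estimated counts per gene, made with Kallisto (GRCm39, Ensembl 104) and tximport as their methods state. Versions, trimming and count scaling are not given in the sources used here. Symbols were taken from a GRCm38 annotation, and promoters from RefSeq GRCm38.p6.

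The 6 genes and the lists were chosen with earlier results of these data known. The related genes given with values are those called, at most 6 per list. Uncalled related genes and Foxo1, which DESeq2 called, are named beside them, chosen after their values were seen. The genes of like pattern are the leading 5 for Edn1 and 3 for each other gene.

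Counts were rounded, filtered by filterByExpr, normalized by TMM and fitted in edgeR 4.0.16 (R 4.3.3) with 1 coefficient per group in all 14 libraries. CPM are scaled by TMM, log2 CPM have a prior count of 2, and an SE is the log2 fold change divided by the root of the F statistic. The study used DESeq2, which was run here as an alternative (version 1.42.0). The 6 genes had at least 46 counts in a library, so counting error adds to the spread between mice. The script was tested on simulated counts. Each library came from its own mouse, and no pair of libraries was identical.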

Additional observations from a re-analysis of the deposited data

Results flagged for a closer look

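Edn1 in WT-O2 mouse GSD408 was 10.9 CPM, further from the other 3 WT-O2 mice (7.72 to 8.21 CPM) than Dixon's test at 95% allows for 4 samples. This is the mouse whose title gives hyperoxia and whose treatment field gives room air. Ednrb in WT-RA mouse GSD401 was 125.1 CPM, by the same test apart from the other 3 WT-RA mice (107 to 110 CPM). The test was applied to the WT groups of 4 mice and not to the KO groups of 3, and chance gives such a flag in about 1 of 20 groups. No gene of the 6 moved in opposite directions in the 2 genotypes in all mice, and none was called for the interaction.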

How the results depend on the processing

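Of the values of the 6 genes in 6 comparisons, 468 of 504 kept direction and call when a mouse was left out. Under other settings 358 of 384 did. Direction changed in 17 and 13, none of them called. These totals include settings that changed a threshold on the same fit, where direction could not change. They also include fits without a mouse of a group not compared, and most values were not called to begin with. Edn1 in WT mice ranged from 1.06 to 1.49 on the log2 scale with a mouse left out, Ednrb from 0.33 to 0.47, Ece1 between KO-RA and WT-RA from -0.45 to -0.32, and Edn1 averaged over the genotypes from 1.13 to 1.35. Fitting only the 2 groups compared gave 1.30 for Edn1 and 0.39 for Ednrb in WT mice, neither called, so that 0 genes were called. With GSD408 as room air 0 genes were called in WT mice (Edn1 0.67, Ednrb 0.29) and 0 for the average (Edn1 0.93). With q below 0.05, Edn1 (1.30) and Ednrb (0.39) in WT mice were not called, which left 0. A fold of at least 1.5 left 1 gene in WT mice, without Ednrb (0.39), and 0 between KO-RA and WT-RA, without Ece1 (-0.38). Striatal and thalamic scores as covariates left 0 between KO-RA and WT-RA (Ece1 -0.17) and gave 2 for the average, as did the endothelial score (2). DESeq2 called 1 gene in KO mice. With a mouse left out, 0 to 2 of the 6 genes were called in WT mice, 0 to 3 between KO-RA and WT-RA, and 1 to 2 for the average.

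Values that changed sign with striatal and thalamic scores as covariates were, in room air and hyperoxia, those of KO against WT for Edn1 (0.20 and 0.09) and Ednra (-0.14 and -0.30), and in hyperoxia Ece2 (0.41). With GSD408 as room air they were Edn1 (0.53) and Ece2 (0.046) for the interaction, Ednrb (-0.03) and Ece2 (-0.056) between KO-RA and WT-RA, Ece1 (-0.004) for the average and Ece2 (-0.001) in WT mice. Library size in place of TMM gave -0.02 for Edn3 between KO-O2 and WT-O2, and the endothelial score 0.045 for Edn3 averaged. With a mouse left out, values of both signs were found for Edn1 (interaction, -0.29 to 0.14), Edn3 (KO, -0.40 to 0.004; hyperoxia KO against WT, -0.21 to 0.19; average, -0.13 to 0.071), Ednra (KO, -0.015 to 0.11), Ece1 (WT, -0.094 to 0.011) and Ece2 (KO, -0.027 to 0.11; room air KO against WT, -0.059 to 0.12).

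Over all genes, the 107 called in WT mice became 304 with DESeq2, 308 with striatal and thalamic scores, 20 with only 2 groups, 6 with GSD408 as room air, 46 with a fold of 1.5 and 22 with q below 0.05, and 13 to 272 with a mouse left out. The 2 in KO mice became 13 with DESeq2, 6 without the filter, 5 with striatal and thalamic scores, 4 with only 2 groups and 0 with GSD408 as room air. The 1738 and 1142 between genotypes became 942 and 607 with a fold of 1.5 and 13 and 2 with striatal and thalamic scores. The 56 for the average became 131 with DESeq2, 1 with GSD408 as room air, 27 with a fold of 1.5 and 21 with q below 0.05. The causes of these shifts were not tested. With 3 or 4 mice per group and under 5 CPM in some, Edn1 and Edn3 carry wide intervals. Each mouse was in 1 group, and the sample labels do not give the litter. Litter was therefore not taken into account.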
